A study of Mus musculus with 8 samples.

Results

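The exons examined here were those of the longest transcript of each mouse protein-coding gene with 3 or more exons, classed as first, internal or last exons by their place in the transcript. The GENCODE annotation of mm9 (mouse release 1) placed 22367 protein-coding genes on the nuclear chromosomes, of which 2965 had 1 exon and 2032 had 2 exons in their longest transcript, and 17370 had 3 or more. These gave 193367 exons, 17370 first, 158627 internal and 17370 last, of 320011 distinct exons annotated to protein-coding genes. 5-hydroxymethylcytosine (5hmC) was mapped by GLIB-Seq, in which a glucose is attached to 5hmC, opened with periodate and coupled to biotin, which lets DNA fragments with 5hmC be captured for sequencing. The data are lists of 5hmC peaks from 6 libraries. They come from the embryonic stem cell (ESC) line E14 without transfection, embryonic fibroblasts (MEF, strain C57BL/6, embryonic day 11 in the labels and a later day in the methods), brain and liver of C57BL/6 mice at 8 weeks of age, and the same E14 line transfected with shGFP, a control hairpin, or with shSuz12, a hairpin against Suz12, a subunit of Polycomb repressive complex 2 (PRC2). Each condition had 1 library, all ESC libraries came from 1 cell line, and the study's text used here does not name the Suz12 hairpin of the GLIB-Seq library, so that differences between libraries were not tested and have no replicate error. A peak list holds no expression values, so the cell types could not be checked against marker expression.

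In mammalian DNA 5-methylcytosine lies mostly at CpG dinucleotides, and TET enzymes oxidise it to 5hmC. CpG islands, which often span the start of a gene and its first exon, are usually unmethylated and so offer TET enzymes little substrate, whereas the coding exons inside a gene are often methylated and hold more CpGs than the introns around them. The first exon carries the transcription start site (TSS) and often the 5′ untranslated region (5′ UTR), internal exons are mostly coding, and the last exon usually holds the end of the coding sequence and the 3′ UTR.

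The classes differed in size and in CpG content before any 5hmC was considered. The median length was 203 bp for first, 125 bp for internal and 1132 bp for last exons. The distinct bases of the first exons summed to 5063490 bp, those of the internal exons to 25059514 bp and those of the last exons to 26888465 bp. CpGs stood at 6.86 per 100 bp in first, 2.60 in internal and 1.39 in last exons, against 0.878 in the introns of the same transcripts. Of the bases of first, internal and last exons, 4.61%, 1.59% and 2.60% also lay in an exon of another class or gene.

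Coding internal exons rich in CpGs stood at both extremes. Of the exons with the most CpGs per bp among those wholly under a peak in all 6 libraries, 3 are shown, and with them both exons chosen for the most CpGs per bp with no peak in any library. Each is given 5′ to 3′ on the strand of the gene, with every CpG in capitals.
Unc119b: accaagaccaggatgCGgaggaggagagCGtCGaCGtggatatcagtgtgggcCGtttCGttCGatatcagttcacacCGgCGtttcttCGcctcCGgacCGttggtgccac
Tpcn1: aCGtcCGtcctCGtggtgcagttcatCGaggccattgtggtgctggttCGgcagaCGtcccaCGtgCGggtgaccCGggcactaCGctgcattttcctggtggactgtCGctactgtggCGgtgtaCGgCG
Apba3: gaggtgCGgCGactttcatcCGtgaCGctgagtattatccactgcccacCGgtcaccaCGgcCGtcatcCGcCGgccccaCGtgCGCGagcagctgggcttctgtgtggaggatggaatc
Magi2: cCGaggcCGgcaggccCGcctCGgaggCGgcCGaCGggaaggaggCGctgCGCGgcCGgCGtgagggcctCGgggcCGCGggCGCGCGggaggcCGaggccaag
Sp3: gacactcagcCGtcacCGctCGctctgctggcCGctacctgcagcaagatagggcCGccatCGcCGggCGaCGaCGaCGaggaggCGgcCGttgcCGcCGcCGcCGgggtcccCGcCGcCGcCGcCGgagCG

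The covered exons were exon 3 of 5 of Unc119b, a carrier of lipid-modified proteins (chr5:115577311-115577422, minus strand), exon 6 of 28 of Tpcn1, an endolysosomal cation channel (chr5:121005877-121006007, minus strand), and exon 9 of 11 of Apba3, an adaptor that binds the amyloid precursor protein (chr10:80735329-80735448, plus strand). Their 112, 131 and 120 bp held 12, 14 and 12 CpGs, and the 1 kb around their middles held 45, 31 and 47. The bare exons were exon 2 of 3 of a transcript annotated as Magi2, a synaptic scaffold (chr5:20208194-20208297, plus strand), and exon 3 of 7 of Sp3, a transcription factor of GC-rich sites (chr2:72816955-72817086, minus strand), with 19 CpGs in 104 bp and 23 in 132 bp. The 1 kb around their middles held 105 and 126 CpGs, more than around any of the covered exons shown. Both sets were picked for the most CpGs per bp, the bare from 40960 candidates and the covered from 924. The difference therefore describes the exons shown only. Over all internal exons the median was 8 CpGs in 1 kb without a peak in any library and 25 with a peak in all 6. All coordinates are of mm9 (NCBIM37), and all these exons are coding throughout in the chosen transcript.

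Internal exons held the most 5hmC per bp of the classes in all 6 libraries. By peaks, 34.1% of the internal exon bp were covered in ESC, 26.7% in brain, 25.2% in liver, 21.6% in shGFP, 15.8% in shSuz12 and 14.8% in MEF. Last exons followed with 25.4% in ESC, 24.95% in liver, 23.2% in brain, 16.5% in shGFP, 14.5% in MEF and 11.3% in shSuz12. In MEF and liver the share of bp covered in last exons was 0.975 and 0.990 times that in internal exons. First exons had 14.7% of their bp under a peak in ESC, 13.3% in shGFP, 8.60% in MEF, 7.80% in liver, 7.14% in brain and 6.99% in shSuz12. Introns of the same transcripts, with all protein-coding exons taken out, lay at 13.6% in brain, 12.5% in liver, 11.8% in MEF, 10.7% in ESC, 6.72% in shGFP and 4.79% in shSuz12. First exons thus lay above the introns in the 3 libraries of the ESC line and below them in MEF, brain and liver.

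Because peaks are wider than most exons, each peak was also counted once, at its midpoint. Internal exons held 434 midpoints per Mb in ESC, 292 in shGFP, 291 in shSuz12, 256 in brain, 228 in liver and 205 in MEF. Last exons held 225 midpoints per Mb in ESC and between 155 (MEF) and 179 in the other libraries. First exons held 164 in ESC, 156 in shGFP, 118 in shSuz12, 95.2 in MEF, 65.2 in brain and 59.1 in liver. The introns held 118 midpoints per Mb in MEF, 105 in brain, 95.1 in ESC, 90.5 in liver, 77.6 in shSuz12 and 70.9 in shGFP. MEF had the highest midpoint density in introns and the lowest in internal and last exons.

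Set against the introns of the same library, internal exons held 4.56 times as many midpoints per bp in ESC (95% interval 4.47 to 4.66), 4.13 in shGFP (4.03 to 4.23), 3.75 in shSuz12 (3.66 to 3.84), 2.52 in liver (2.46 to 2.59), 2.45 in brain (2.39 to 2.51) and 1.74 in MEF (1.69 to 1.79). The ratio for last exons was 2.43 in shGFP (2.36 to 2.50), 2.37 in ESC (2.31 to 2.43), 2.30 in shSuz12 (2.24 to 2.37), 1.89 in liver (1.84 to 1.95), 1.71 in brain (1.66 to 1.76) and 1.32 in MEF (1.28 to 1.36). The ratio for first exons was 2.20 in shGFP (2.05 to 2.36), 1.72 in ESC (1.60 to 1.84) and 1.51 in shSuz12 (1.39 to 1.64), but 0.807 in MEF (0.736 to 0.882), 0.652 in liver (0.580 to 0.731) and 0.624 in brain (0.558 to 0.695). In each library the intervals of the internal and last exons did not overlap and internal exons lay higher. The intervals of first and last exons overlapped in shGFP only, where first exons held 0.908 times as many midpoints per bp as last exons (0.841 to 0.980). All intervals are exact binomial ones by the Clopper-Pearson method for counting error alone, and they take each count as independent. For the shares of exons given below, neighbouring exons can share a peak, so those intervals are too narrow even for that.

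**Figure D1:**
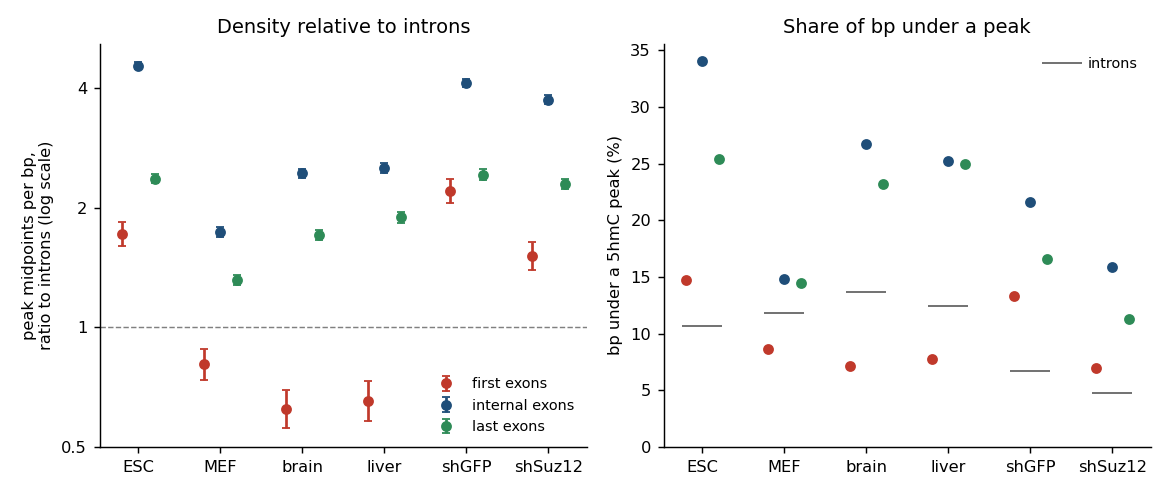
Left, peak midpoints per bp of each exon class divided by those of the introns of the same transcripts (log scale, bars are exact 95% intervals of counting error, dashed line at equality), for the 6 libraries. Right, percent of bp under a peak in each class (points, coloured as on the left) and in introns (dashes). First exons (red) lie above 1 in ESC, shGFP and shSuz12 and below 1 in MEF, brain and liver, and internal exons (blue) are highest in every library.

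Counted exon by exon, with at least 1 bp under a peak, 31.4% of internal exons lay under a peak in ESC, beside 31.2% of all annotated exons. The corresponding shares were 14.9% of internal exons beside 16.3% of all exons in MEF, 24.7% beside 24.1% in brain, 24.5% beside 25.1% in liver, 19.7% beside 21.2% in shGFP and 15.5% beside 16.4% in shSuz12. The share of internal exons was near the background in each library, so it is no result about them. First exons lay below the background in all 6 libraries, with 15.1% in ESC, 14.4% in shGFP, 9.17% in MEF, 8.45% in shSuz12, 7.42% in liver and 6.14% in brain. Last exons lay above it, with 44.99% in ESC, 39.1% in liver, 37.5% in brain, 33.3% in shGFP, 29.6% in shSuz12 and 28.7% in MEF, and they are also the longest class. Of the exons touched by a peak, internal exons were mostly covered whole, 91.1% in ESC and 71.5% in shSuz12, the highest and lowest shares, while between 7.59% (shSuz12) and 32.1% (liver) of the touched last exons were covered whole.

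Peaks and exons did not pair one to one. In ESC 30993 peaks, 18.03% of the list, touched an internal exon, and 30.8% of those touched more than 1. The most internal exons under a single peak were 30 in ESC, 31 in liver, 28 in brain, 24 in shGFP, 15 in MEF and 11 in shSuz12. First exons were touched by 2659 peaks in ESC and 1082 in brain, the highest and lowest numbers. The peaks over internal exons had a median width of 987 bp in ESC and 594 bp in shSuz12, against 844 and 564 bp over the whole lists.

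The coding and untranslated parts of the outer exons differed. In the last exon the coding part was covered to 39.4% in ESC, 29.8% in brain, 28.2% in liver, 27.6% in shGFP, 19.4% in shSuz12 and 16.6% in MEF. The 3′ UTR part of the same exons was covered to 24.0% in liver, 22.4% in ESC, 21.9% in brain, 14.2% in shGFP, 14.1% in MEF and 9.63% in shSuz12. The coding part thus lay above the 3′ UTR part in all 6 libraries, and above the coding part of internal exons in each (33.97% in ESC, 26.7% in brain, 24.7% in liver, 21.6% in shGFP, 15.8% in shSuz12 and 14.9% in MEF). Its CpG content was 2.70 per 100 bp, near the 2.64 of internal coding sequence, and that of the 3′ UTR part 1.12. In the first exon the 5′ UTR part was covered to 10.9% in ESC, 11.2% in shGFP, 6.78% in MEF, 5.47% in shSuz12, 5.38% in liver and 4.03% in brain, and the coding part to 19.4%, 16.8%, 10.1%, 9.46%, 8.62% and 10.2% in the same order. There the part with more CpGs, the 5′ UTR with 7.52 per 100 bp against 6.59, was the less covered in all 6 libraries.

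Position along the transcript gave a step after exon 1 and lower values in the pooled middle exons. In the 7322 transcripts with 10 or more exons, the bp covered rose from 13.0% in exon 1 to 36.7% in exon 2 in ESC, from 12.0% to 24.2% in shGFP, from 6.06% to 17.7% in shSuz12, from 7.34% to 20.1% in MEF, from 6.14% to 29.3% in brain and from 5.97% to 29.3% in liver. The middle exons were lower than exon 2 in all 6 libraries, at 31.7% in ESC, 25.6% in brain, 21.4% in liver, 19.2% in shGFP, 14.2% in shSuz12 and 13.0% in MEF. Middle exons exist only in transcripts with more than 10 exons, and transcripts with more exons weigh more among them. They held 9.45 Mb, against 1.32 Mb for exon 2. The lower values in the middle are therefore not of the same mix of genes, and an effect of position was not tested. The next-to-last exon stood at 37.5% in ESC, 30.6% in brain, 30.9% in liver, 24.7% in shGFP, 18.5% in shSuz12 and 16.4% in MEF, above exon 2 in each library except MEF. The last exon stood at 26.7% in ESC, 26.2% in brain, 27.2% in liver, 17.5% in shGFP, 12.1% in shSuz12 and 16.0% in MEF. Introns ran the other way at the 5′ end: the first intron was covered to 15.5% in MEF, 15.8% in brain, 16.7% in liver and 12.8% in ESC, and the fifth to 10.5%, 12.6%, 10.5% and 9.70%. In MEF, brain and liver, exon 1 lay below the first intron, while in ESC the values were 13.0% and 12.8%.

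**Figure D2:**
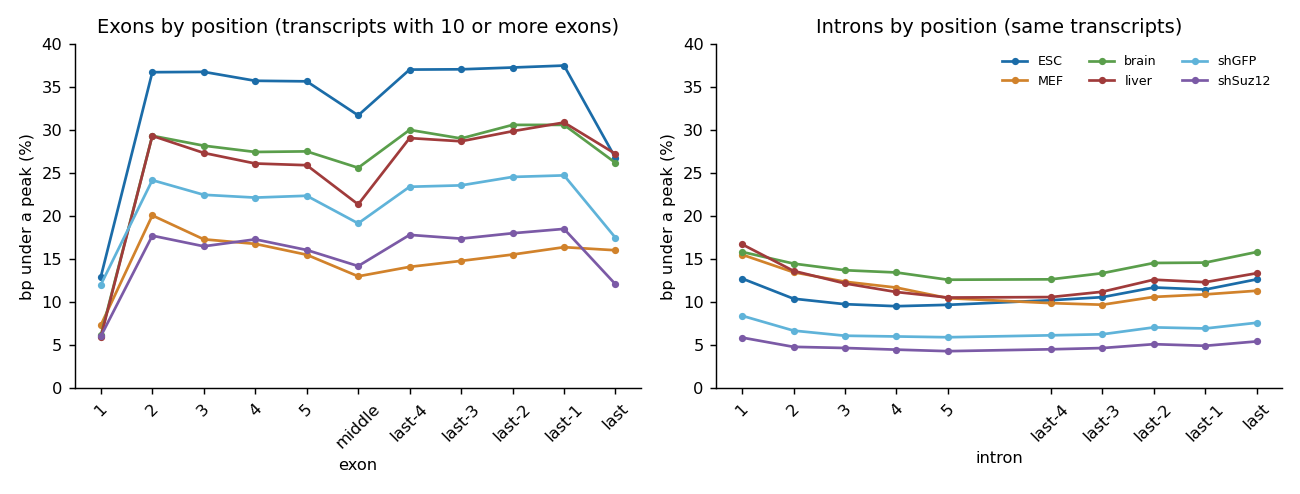
Percent of bp under a peak by position in the transcripts with 10 or more exons, for exons (left) and introns (right), with 1 line per library. The position "middle" pools all exons between the fifth from the start and the fifth from the end. It holds only transcripts with more than 10 exons, and those with more exons weigh more. Every library rises from exon 1 to exon 2, and introns stay between 4.32% and 16.7%.

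CpG content separated the classes further. Over single CpGs, 46.8% of those in internal exons lay under a peak in ESC, 43.0% of those in last exons, 20.1% of those in introns and 7.72% of those in first exons. In first exons this share was 8.73% in shGFP, 4.07% in shSuz12, 4.01% in MEF, 3.73% in liver and 3.27% in brain, below the introns in all 6 libraries, by a ratio between 0.148 in brain and 0.652 in shGFP. For internal exons the ratio to introns per CpG was 2.40 in shGFP, 2.40 in shSuz12, 2.33 in ESC, 1.64 in liver, 1.56 in brain and 1.01 in MEF. The excess of internal exons over introns in MEF was therefore seen per bp but not per CpG. The order of internal and last exons also changed per CpG. Last exons lay above internal exons in MEF (23.0% against 20.1%), liver (35.0% against 30.9%) and brain (35.6% against 34.4%), and below them in the 3 libraries of the ESC line.

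Exons were also grouped by the number of CpGs in the 1 kb around their middle, beside 150 bp stretches at the middle of introns of at least 2000 bp. Coverage was highest at 20 to 39 CpGs in most classes and libraries. The exceptions were first exons in liver, with their highest value at 10 to 19 CpGs, and internal exons in shGFP and last exons in shGFP and shSuz12, which were highest at 40 or more. At 20 to 39 CpGs internal exons were covered to 77.5% in ESC, 55.4% in brain, 54.1% in shGFP, 44.7% in liver, 38.6% in shSuz12 and 30.5% in MEF. Intron middles with the same CpG content were covered to 56.9%, 43.1%, 39.8%, 34.4%, 26.8% and 39.96% in that order, so that MEF was the only library of the 6 in which intron middles lay above internal exons in this group. First exons of this group were covered to 43.5% in ESC, 36.7% in shGFP, 22.5% in MEF, 20.9% in shSuz12, 19.8% in brain and 17.0% in liver.

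In the group with 40 or more CpGs, which held 10083 of the 17370 first exons, the classes separated most. First exons were covered to 7.66% in shGFP, 5.51% in ESC, 3.14% in liver, 3.13% in shSuz12, 2.87% in MEF and 2.16% in brain. The 3120 internal exons with as many CpGs were covered to 55.9% in shGFP, 53.9% in ESC, 40.2% in brain, 35.3% in shSuz12, 33.97% in liver and 25.01% in MEF. The 390 last exons of this group lay between 25.5% in MEF and 54.5% in shGFP. The 125 intron middles of this group lay between 4.30% in brain and 15.9% in shGFP. In ESC, shGFP and shSuz12 the first exons lay above the intron middles in the groups below 20 CpGs and below them in the others. With 10 to 19 CpGs they were covered to 30.0%, 19.8% and 12.5%, against 21.5%, 12.5% and 9.36% of the intron middles.

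**Figure D3:**
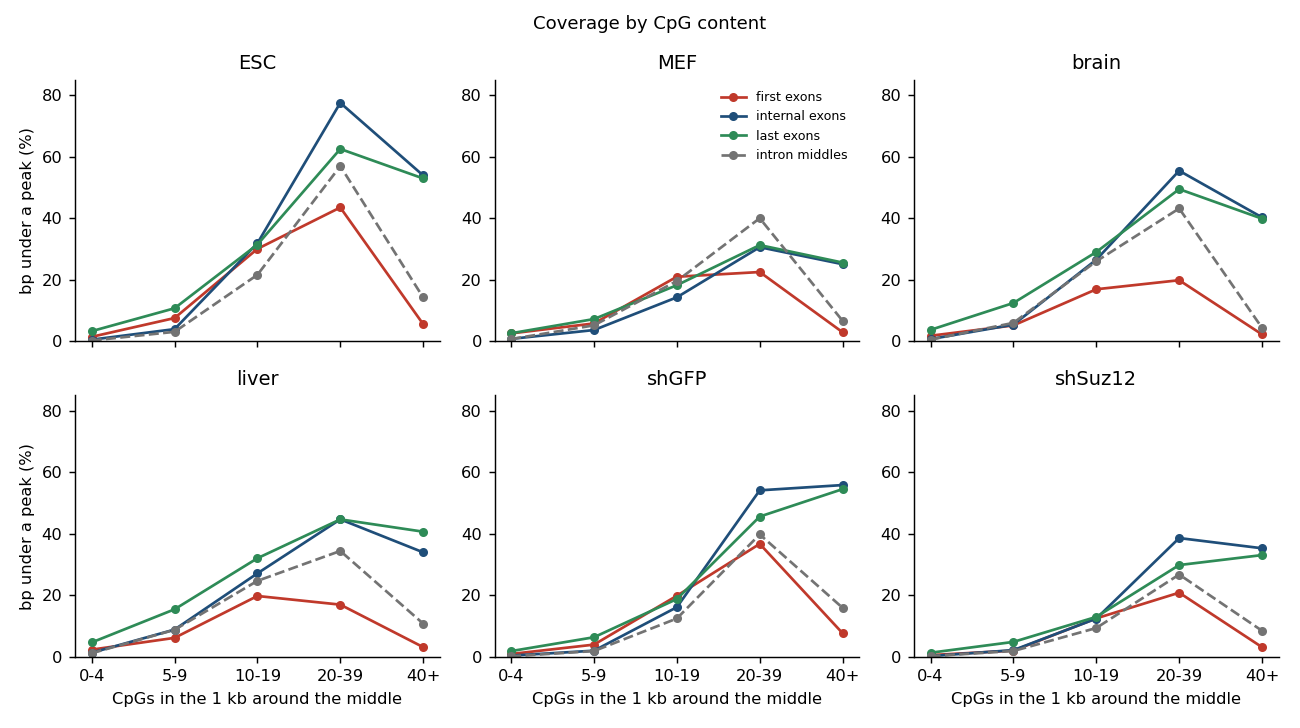
Percent of bp under a peak by the number of CpGs in the 1 kb around the middle of each first exon (red), internal exon (blue), last exon (green) or intron middle (grey, dashed), 1 panel per library. At 40 or more CpGs first exons fall to between 2.16% and 7.66%, while internal and last exons stay at 25.01% or more in all 6 libraries.

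At the edges of internal exons coverage changed gradually. The first base of internal exons lay under a peak in 29.9% of cases in ESC, 23.2% in brain and liver, 18.2% in shGFP, 13.6% in MEF and 13.1% in shSuz12. At 200 bp upstream, where 136985 of these edges still lay in the intron, the shares were 23.6% in ESC, 20.02% in brain, 19.9% in liver, 13.3% in shGFP, 11.9% in MEF and 8.68% in shSuz12. These shares stood beside intron averages of 10.7% in ESC, 13.6% in brain, 12.5% in liver, 6.72% in shGFP, 11.8% in MEF and 4.79% in shSuz12, so that MEF was the library nearest to its introns. Over the whole 200 bp on both sides of this edge, the inside to outside ratio of bp covered was 1.301 in shSuz12, 1.21 in shGFP, 1.16 in ESC, 1.11 in brain, 1.10 in liver and 1.09 in MEF. CpGs changed more steeply over the same bases, from 1.08 per 100 bp outside to 2.63 inside. The ratio at the 3′ edge of internal exons was between 1.09 in liver and 1.28 in shSuz12. Edges next to introns under 200 bp drop out of the outermost positions. The shares at the edge (158627 exons) and at 200 bp outside are therefore not of the same exons. With 100 bp on each side the ratio at the 5′ edge lay between 1.03 in MEF and 1.11 in shSuz12.

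At the TSS, the 5′ edge of the first exon, the inside to outside ratio was 1.02 in shSuz12, 0.987 in shGFP, 0.986 in brain, 0.968 in ESC, 0.882 in MEF and 0.798 in liver. In liver the share fell from 7.72% at 200 bp upstream to 5.34% at the first base, and in MEF from 8.49% to 6.86%. At the 3′ edge of the first exon the ratio was 1.10 in shSuz12, 1.01 in shGFP, 0.997 in brain, 0.979 in ESC, 0.947 in MEF and 0.909 in liver. The 5′ edge of the last exon had a ratio between 1.08 (brain, liver) and 1.26 (shSuz12), with 35.3% of edge bases under a peak in ESC, 29.5% in liver, 27.1% in brain, 23.2% in shGFP, 16.7% in MEF and 16.3% in shSuz12. At the end of the transcript, the 3′ edge of the last exon, 24.1% of the edge bases lay under a peak in liver, 19.9% in ESC, 17.4% in brain, 13.0% in shGFP, 12.5% in MEF and 7.92% in shSuz12. Liver was the highest of the 6 libraries there, and it remained so 200 bp downstream with 23.4%. A peak is several times wider than an internal exon. Inner positions can be read only in exons long enough to hold them, and outer ones only where the intron is long enough. The exons counted thus change along a profile, and coverage differed with exon and intron length, as given below. These profiles are descriptions without a test.

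**Figure D4:**
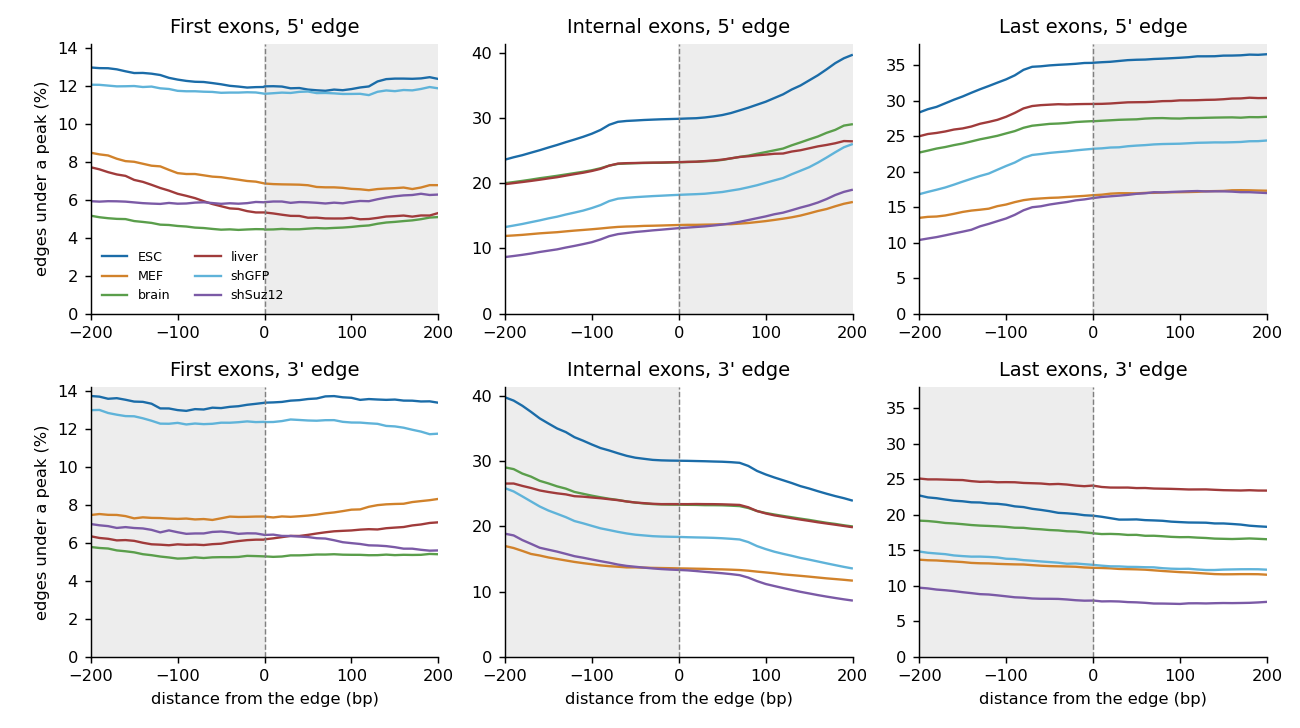
Percent of edges with a peak at each distance from the 5′ edge (top) and the 3′ edge (bottom) of first, internal and last exons, with 1 line per library. Shading marks the side inside the exon, and the vertical scales differ between classes. Positions inside count only exons at least that long and positions outside only bases before the next exon. Internal exons decline outward on both sides, from 29.9% at the 5′ edge to 23.6% at 200 bp outside in ESC, where edges next to shorter introns are no longer counted. First exons are the lowest class.

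Internal exons differed among themselves by gene architecture. Those flanked by introns under 1 kb on both sides were covered to 47.4% in ESC, against 27.9% of those with introns of 1 kb or more on both sides. The values were 35.2% and 20.7% in liver, 32.9% and 24.7% in brain, 30.6% and 17.4% in shGFP, 21.4% and 13.5% in shSuz12, and 15.2% and 15.8% in MEF. Distance from the TSS gave different courses. From 5 to 20 kb and from 100 kb on, coverage was 40.1% and 24.7% in ESC, 29.5% and 15.6% in liver, 24.98% and 15.6% in shGFP, 18.3% and 12.1% in shSuz12, 26.6% and 28.3% in brain, and 12.4% and 18.3% in MEF. Internal exons within 1 kb of the TSS were covered to 27.8% in ESC and 16.2% in brain, against 41.0% and 26.8% at 2 to 5 kb. Liver, shGFP and shSuz12 also had the lower value within 1 kb (21.2%, 20.8% and 13.3%, against 32.0%, 27.8% and 18.9%), while MEF had 16.1% within 1 kb and 14.8% at 2 to 5 kb. Coverage rose with the length of internal exons up to 1000 bp, with 25.5% of bp in those under 100 bp and 46.4% in those of at least 500 but under 1000 bp in ESC, and 12.5% and 19.3% in MEF. In those of 1000 bp or more it was 42.1% in ESC, 17.0% in MEF, 28.9% in shGFP and 21.4% in shSuz12, lower than in the group before, but 38.7% in brain and 31.2% in liver, slightly higher.

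Sharing of exons between libraries was limited. All 6 libraries had a peak on 2742 internal exons (1.73%), 101 first exons (0.581%) and 1279 last exons (7.36%), beside 2.37% of all annotated exons. No library had a peak on 76414 internal exons (48.2%), 12846 first exons (74.0%) and 5876 last exons (33.8%), beside 49.3% of all annotated exons. The first exons without a peak in any library had a median of 59 CpGs in the 1 kb around them and those with a peak in all 6 had 29. For internal exons the order was opposite, with 8 CpGs in those without a peak and 25 in those with 6. Among ESC, MEF, brain and liver, ESC alone covered 13236 internal exons (8.34%), liver alone 9057 (5.71%), brain alone 7330 (4.62%) and MEF alone 4358 (2.75%). Of first exons ESC alone covered 1139 (6.56%), MEF alone 442 (2.54%), liver alone 382 (2.20%) and brain alone 182 (1.05%). No share of all annotated exons is given beside these counts, and the lists differ in lowest score, so the counts are descriptions only. The first exons found in liver alone had a median of 46 CpGs in 1 kb, against 27 in ESC, 16.5 in MEF and 16 in brain.

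Gene by gene, peaks on internal and last but not first exons were more frequent than peaks on all classes in each library. A class counts here if any of its exons is touched. Transcripts had a median of 8 exons, most of them internal, and last exons are the longest class. The classes thus had unequal room for a peak, and no background share is given, so the patterns are descriptions only. In ESC 5329 of the 17370 genes (30.7%) had that pattern, 3169 (18.2%) had peaks on internal exons alone, 1238 (7.13%) had peaks on all classes and 424 (2.44%) on the first exon alone, while 5179 (29.8%) had none. In MEF 3887 genes (22.4%) had peaks on internal exons alone, more than the 3086 (17.8%) with internal and last, and 451 (2.60%) had all classes. The first exon alone was covered in 665 genes (3.83%) in shGFP and 468 (2.69%) in shSuz12, the highest and second highest numbers of the 6 libraries.

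Single exons covered whole in all 6 libraries are named by CpG content. Besides those printed, the internal exons were exon 14 of 21 of Tjp3, a tight junction protein (chr10:80739941-80740155), with 21 CpGs in 215 bp, and exon 9 of 10 of Mid1, a microtubule-bound ubiquitin ligase (chrX:166425491-166425698), with 20 in 208 bp, from 924 candidates. Tjp3 and Apba3 are neighbours on chromosome 10. Only 17 first exons of 100 to 300 bp were covered whole in all 6 libraries, and the 5 with the most CpGs per bp were those of the gene model Gm4969 (20 CpGs in 164 bp), Dazl, an RNA-binding protein of germ cells (19 in 193 bp), Dysfip1 (18 in 269 bp), Ly6k (14 in 217 bp) and Gdpd3, a phosphodiesterase of lipids (11 in 196 bp). Of 16 last exons of that length, the 5 were those of Polr2f, an RNA polymerase subunit (13 CpGs in 186 bp), Cyp2w1, a cytochrome monooxygenase (10 in 188 bp), Adcy4, an adenylyl cyclase (10 in 230 bp), Ddx39b, an RNA helicase of splicing and mRNA export (9 in 208 bp), and a short gene entry named Fgfr1 (5 in 132 bp).

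The genes with the most internal exons under a peak in all 6 libraries were Sfi1, Lrp1, Gigyf1, Lama5 and Gse1. Sfi1, which encodes a centrin-binding protein of the centrosome (chr11:3031890-3093442), had 27 of its 28 internal exons under a peak in all 6 libraries, and its first and last exons were covered whole in each. The peaks there were wider than the list medians, with a median between 1343 bp in shSuz12 and 16457 bp in MEF and the widest at 22973 bp, and their highest scores were 3100 or more in all 6 libraries. Lrp1, an endocytic lipoprotein receptor, had peaks on 84 of 87 internal exons in liver, 78 in ESC, 68 in brain, 64 in shGFP, 47 in shSuz12 and 37 in MEF, with 21 shared by all 6 and no peak on its first exon in any. Gigyf1, an adaptor with a GYF domain, had all 22 internal exons under a peak in ESC, brain, liver and shGFP, 18 in shSuz12 and 13 in MEF. Lama5, a laminin chain of basement membranes, had 73 of 77 in ESC, 55 in brain and shGFP, 37 in shSuz12, 31 in liver and 27 in MEF. Gse1, a coiled-coil protein, had all 14 in ESC, brain, liver and shGFP and 13 in MEF and shSuz12, and in ESC a single peak there was 38707 bp wide. The first exons of Lrp1, Lama5 and Gse1 had no peak in any library.

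The genes with the largest share of internal exons covered whole, among those with 10 or more, were Sfi1 and 1 other gene in each library. Sfi1 had all 28 covered whole in 5 libraries and 26 in shSuz12, where Csf2ra was ahead of it. In ESC all 31 internal exons of Plec, a cytolinker of intermediate filaments, were covered whole, against 15 in MEF. In liver all 27 internal exons of Acly, which makes cytosolic acetyl-CoA for lipid synthesis, were covered whole, against 16 in ESC, 10 in brain, 8 in shGFP, 6 in shSuz12 and 4 in MEF, and its first exon had no peak in any of the 6 libraries. In shGFP all 24 of Pold1, the catalytic subunit of DNA polymerase delta, were covered whole, as in ESC, against 17 in shSuz12, 11 in brain, 9 in liver and 3 in MEF. Snx32, a sorting nexin, had all 11 covered whole in MEF, ESC and brain. Csf2ra, a cytokine receptor chain, had all 10 covered whole in the 3 libraries of the ESC line, 7 in liver, 4 in MEF and none in brain.

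Genes of 5 lists, chosen with earlier results of these data known, were described without a test. Of the 144 internal exons of the 9 genes in the list for 5-methylcytosine and 5hmC, 99 (68.8%) lay under a peak in ESC, 65 (45.1%) in shGFP, 45 (31.2%) in shSuz12, 41 (28.5%) in brain, 33 (22.9%) in liver and 15 (10.4%) in MEF. The shares of all annotated exons, given above, were 31.2% in ESC, 21.2% in shGFP, 16.4% in shSuz12, 24.1% in brain, 25.1% in liver and 16.3% in MEF, and they are the background for each list. Dnmt1, the maintenance methyltransferase, had all 37 internal exons under a peak in ESC, 23 in shSuz12, 21 in shGFP, 11 in brain, 5 in liver and 0 in MEF. Uhrf1, its partner at replicating DNA, had 14 of 15 in ESC and 4 in shGFP and shSuz12. Dnmt3b, a de novo methyltransferase, had 0 of 22 in ESC and 5 in brain, and Dnmt3a had 17 of 21 in ESC. Tet1 had 8 of 11 in ESC and shGFP, 4 in shSuz12 and brain, 2 in liver and 1 in MEF. Of the 9 first exons, 1 lay under a peak in ESC and shGFP and 0 in the other libraries.

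The 8 collagen and matrix genes were the list with its highest count in MEF, where 141 of 402 internal exons (35.1%) lay under a peak, beside 16.3% of all annotated exons, against 89 (22.1%, beside 31.2%) in ESC, 74 (18.4%, beside 24.1%) in brain, 43 (10.7%, beside 25.1%) in liver, 41 (10.2%, beside 21.2%) in shGFP and 32 (7.96%, beside 16.4%) in shSuz12. Col1a1 had 35 of 49 and Col1a2, its partner in type I collagen, 33 of 50 in MEF. Neither had a peaked internal exon in liver, and ESC had 21 and 0. Col3a1 with 49 and Col5a2 with 52 internal exons had none in any library. Fn1, the matrix and plasma glycoprotein fibronectin, had 38 of 44 in liver, 30 in ESC, 26 in MEF, 19 in shGFP and 13 in brain and shSuz12. Of the 10 genes of liver function, 30 of 105 internal exons (28.6%) lay under a peak in liver, near the 25.1% of all annotated exons. The list had 12 (11.4%) in ESC and brain, 10 (9.52%) in shGFP, 9 (8.57%) in shSuz12 and 5 (4.76%) in MEF, below the background in each. Those in liver lay mostly in Apob (13 of 27), the apolipoprotein of very low density lipoproteins, and Cps1 (13 of 36), of the urea cycle, with the other 4 in Fgb, a fibrinogen chain, while Alb, Ttr, Serpina1a, Apoa1, F2, Fga and Tat had none there. Tat, a liver aminotransferase, had 5 of 10 in ESC and brain, and Apoa1 and F2 had 2 of 2 in ESC. None of the first exons of this list was under a peak in liver, against 4 in brain.

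Of the neuronal list 9 of 10 genes were found, and 69 of their 150 internal exons lay under a peak in ESC (46%, beside 31.2% of all annotated exons), 46 in brain (30.7%, beside 24.1%), 45 in shGFP (30%, beside 21.2%), 36 in MEF and shSuz12 (24%, beside 16.3% and 16.4%) and 13 in liver (8.67%, beside 25.1%). Dlg4, a scaffold of excitatory synapses, had 18 of 18 in ESC and 9 in brain, and Camk2a, a kinase of synaptic plasticity, 12 of 16 in ESC, 7 in brain and 0 in liver. Of the PRC2 list 7 of 8 genes were found, with 16 of 98 internal exons (16.3%) in ESC and brain, 15 (15.3%) in shGFP, 14 (14.3%) in liver, 9 (9.18%) in shSuz12 and 8 (8.16%) in MEF, below the background in all 6 libraries. Jarid2, which brings PRC2 to chromatin, held 10 of the 16 in ESC, and Suz12 itself had no peak on its 14 internal exons in any library. No first exon of the PRC2 list lay under a peak in any library.

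The genes named in the study beside 5hmC had few peaks on exons. Cdc25a, a cell cycle phosphatase, had 6 of 13 internal exons under a peak in ESC and shGFP, 4 in shSuz12, 1 in MEF and liver and 0 in brain. Kdr, a receptor of vascular growth factor, had 2 or 3 of 28 in 5 libraries and 0 in liver, but its last exon of 1792 bp was covered over 1742 bp in MEF, 1254 in ESC, 1248 in brain, 1173 in shGFP and 1030 in shSuz12. Alb, serum albumin, had 1 of 13 in shSuz12 and 0 in the other libraries. Pou5f1, a transcription factor of pluripotency, had 2 of 3 internal exons in MEF, 1 in brain and 0 elsewhere, and Eef1a1, a translation elongation factor, had no peak in any library. None of these genes had a peak on its first exon.

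Between shGFP and shSuz12, first exons lost peaks more often than internal and last exons. Of the first exons, 2505 had a peak in shGFP, and 1402 of these had no shSuz12 peak (56.0%, interval 54.0 to 57.9), beside 49.6% of 31247 internal exons (49.1 to 50.2), 34.9% of 5784 last exons (33.7 to 36.2) and 47.8% of all annotated exons with a peak in shGFP. In the same direction, 27.0% of these first exons (25.3 to 28.8), 10.6% of the internal and 8.75% of the last exons had no peak in the untransfected ESC library, beside 11.9% of all annotated exons. First exons were the highest class in both comparisons, which share the shGFP list. An exon counts as lost only if not 1 bp of it is touched, and the classes differ in length. The median was 203 bp in first, 125 bp in internal and 1132 bp in last exons, so the lower share of last exons is not on equal terms. In the reverse direction they were the lowest class. Of the exons with a shSuz12 peak, 24.8% of first, 35.8% of internal and 26.7% of last exons had none in shGFP, beside 32.5% of all annotated exons. Of those with an ESC peak, 30.1%, 43.8% and 32.5% had none in shGFP, beside 40.2% of all annotated exons. The median peak width was 564 bp in shSuz12 against 776 bp in shGFP, and the lowest score was 30.3 against 50.02, so the lists do not have one threshold. With a score of at least 80 in each list, a choice made after the data had been seen, the shares rose to 80.3%, 74.8% and 68.9%, in the same order of classes. No share of all annotated exons is given at that score. The part of the threshold and of the hairpin in the loss cannot be told apart with 1 library each.

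**Figure D5:**
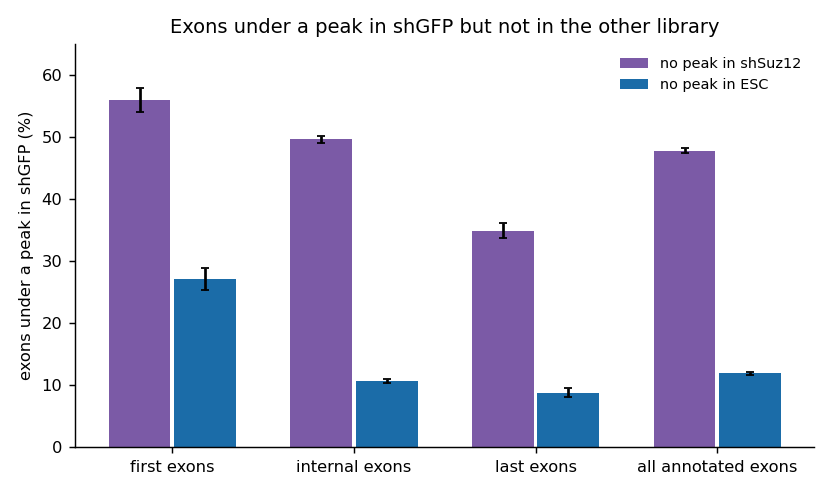
Percent of the exons under a peak in shGFP that had no peak in shSuz12 (purple) or in untransfected ESC (blue), for each class and for all annotated exons of protein-coding genes. Bars are shares with exact 95% intervals of counting error, and first exons are the highest class in both comparisons (56.0% and 27.0%). The classes differ in exon length, and last exons are the longest.

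In bp covered, the total in shSuz12 was 0.525 times that in shGFP over first exons, 0.732 over internal exons, 0.685 over last exons and 0.712 over introns, against 0.689 over the genome. These are ratios of totals in separate lists, not of shared bases. The ratio to the genome was thus 0.761 in first, 1.06 in internal and 0.993 in last exons. By midpoints, of which shSuz12 had 1.04 times as many over all, the ratio was 0.752 over first, 0.995 over internal and 1.04 over last exons. The ratio for first exons was below 1 in each CpG group and lowest at 40 or more CpGs, with 7.66% covered in shGFP and 3.13% in shSuz12 (0.408). For internal exons, last exons and intron middles with as many CpGs it was 0.632, 0.607 and 0.531. Untransfected ESC also lay below shGFP in this group, at 0.719 times for first exons, 0.964 for internal exons, 0.970 for last exons and 0.891 for intron middles.

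The genes with the most internal exons under a peak in shGFP and ESC and not in shSuz12 had many exons. Ryr1, the calcium release channel of skeletal muscle, lost 24 of 104 in this way, with 67 under a peak in ESC, 51 in shGFP and 33 in shSuz12. Dync1h1, the heavy chain of cytoplasmic dynein, lost 22 of 75, with 68, 38 and 22. Ttn, the sarcomere protein titin, lost 22 of 345, with 76, 42 and 28. Mll2, a histone methyltransferase, lost 21 of 53, with 52, 39 and 24, and Nbeal2, which acts in platelet granules, lost 20 of 52, with 51, 39 and 23. Set against the internal exons under a peak in shGFP, the losses were 24 of 51 in Ryr1, 22 of 38 in Dync1h1, 22 of 42 in Ttn, 21 of 39 in Mll2 and 20 of 39 in Nbeal2. Beside them stand 49.6% of all internal and 47.8% of all annotated exons with a shGFP peak, without the condition on ESC. The genes were named by this loss, so the counts are a description and no result about these genes. Ryr1 and Ttn had 1 and 0 covered internal exons in liver, and Dync1h1, Mll2 and Nbeal2 had 59, 53 and 47.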

How the data were processed

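The 6 GLIB-Seq libraries, 1 per condition, measured 5hmC. RNA-Seq of the shGFP and shSuz12 cells was not analysed here. Per the methods and the submitters' processing notes, the authors called bases with CASAVA 1.8, mapped unique reads to mm9 with Bowtie 0.12.7 and called peaks per library with MACS 1.4.1. The deposited lists give position and a score, taken as the negative log10 of the p-value times 10. No read counts are given, so the depth is unknown, and the lowest score was 80 in ESC and liver, 30 in MEF and brain, 50.02 in shGFP and 30.3 in shSuz12. The lists held between 130408 (liver) and 217025 (MEF) nuclear peaks, which covered between 3.15% (shSuz12) and 7.83% (MEF) of the genome. Mitochondrial peaks were left out.

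Exons came from GENCODE mouse release 1 (Ensembl 65) on NCBIM37, the assembly of mm9. The longest transcript was that with the largest summed exon length. Introns exclude all exons of protein-coding genes. Overlap means at least 1 bp. Intervals are exact 95% intervals of counting error. The analysis ran in Python 3.11.15 (scipy 1.17.1, pandas 2.3.3, numpy 2.4.6; figures in matplotlib 3.10.9) and was tested on simulated peaks.

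The members and gene lists were chosen with earlier results of these data known. Named genes are those the paper names, 5 exons per class of 100 to 300 bp covered whole in all 6 libraries with the most CpGs per bp (internal exons coding throughout), 2 such internal exons without a peak, 5 genes with the most internal exons covered in all 6 libraries, 2 genes per library with the largest share of at least 10 internal exons covered whole, and 5 genes with the most internal exons lost in shSuz12. Gene names are those of the annotation, and Rbbp4 and Map2 had no transcript under these names in the set. Alternatives were other score filters, equal numbers of peaks (130408), bp in place of midpoints, other transcripts, exclusive bp, chromosome 8 left out, 5 or more exons and flanks of 100 bp. Those for the exons lost in shSuz12 were added after seeing the data.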

Additional observations from a re-analysis of the deposited data

Results flagged for a closer look

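First exons lay on opposite sides of the introns in different libraries. Their midpoints per bp, relative to the introns, were 1.72 in ESC, 2.20 in shGFP and 1.51 in shSuz12, but 0.807 in MEF, 0.624 in brain and 0.652 in liver, and none of the 6 intervals of counting error contained 1. The 3 libraries above 1 are those of the E14 line. The difference between libraries was not tested.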

How the results depend on the processing

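No paired analysis was possible because no 2 libraries share a condition. Of 162 alternative values of the exon to intron ratio, 104 lay within the interval of counting error of the reported value, 58 did not and 0 changed sides of 1. Over all alternatives internal exons stayed between 1.25 and 5.40, last exons between 1.22 and 3.33, and first exons between 1.38 and 3.01 in the ESC line and between 0.519 and 0.894 in MEF, brain and liver. In the higher-scoring 50% of every list the ratio was for first exons 2.26 in ESC, 0.894 in MEF, 3.01 in shGFP and 1.80 in shSuz12, for internal exons 5.00 in ESC, 1.51 in MEF, 4.86 in shGFP and 4.56 in shSuz12, for last exons 2.89 in ESC, 1.93 in brain, 2.17 in liver, 2.97 in shGFP and 2.66 in shSuz12. With equal numbers of peaks the ratio was for first exons 1.94 in ESC and 0.89 in MEF, for internal exons 4.75 in ESC, 1.57 in MEF and 3.84 in shSuz12, for last exons 2.57 in ESC and 1.78 in brain. By bp covered the ratio was for first exons 1.38 in ESC, 0.727 in MEF, 0.523 in brain and 1.98 in shGFP, for internal exons 3.20 in ESC, 1.25 in MEF, 1.96 in brain, 2.02 in liver, 3.22 in shGFP and 3.31 in shSuz12, for last exons 1.22 in MEF and 2.004 in liver. With the longest transcript by genomic span the ratio was for first exons 0.705 in MEF, 0.525 in brain and 0.519 in liver, for internal exons 4.72 in ESC, 2.52 in brain, 2.62 in liver, 4.24 in shGFP and 3.87 in shSuz12, for last exons 2.49 in ESC, 1.77 in brain, 1.97 in liver, 2.57 in shGFP and 2.42 in shSuz12. With transcripts of protein-coding type the ratio was for first exons 0.553 in brain and 0.557 in liver. With scores of at least 80 the ratio was for first exons 2.87 in shGFP and 2.39 in shSuz12, for internal exons 1.36 in MEF, 2.64 in brain, 4.74 in shGFP and 5.40 in shSuz12, for last exons 1.27 in MEF, 2.14 in brain, 2.86 in shGFP and 3.33 in shSuz12. Without chromosome 8 the ratio was for internal exons 4.68 in ESC.

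Of 108 alternative edge ratios 37 left the interval set by the number of exons. With 100 bp on each side the edge ratio was at the 5′ edge of first exons 0.94 in MEF and 0.892 in liver, at the 5′ edge of internal exons 1.04 in ESC, 1.03 in MEF, 1.03 in brain, 1.03 in liver, 1.06 in shGFP and 1.11 in shSuz12, at the 3′ edge of internal exons 1.04 in ESC, 1.03 in MEF, 1.03 in brain, 1.02 in liver, 1.05 in shGFP and 1.10 in shSuz12, at the 5′ edge of last exons 1.03 in ESC, 1.05 in MEF, 1.03 in brain, 1.02 in liver, 1.05 in shGFP and 1.11 in shSuz12, at the 3′ edge of last exons 1.06 in ESC, 1.04 in MEF, 1.04 in brain, 1.06 in shGFP and 1.07 in shSuz12. With scores of at least 80 the edge ratio was at the 5′ edge of first exons 0.94 in MEF and 1.10 in shSuz12, at the 5′ edge of internal exons 1.07 in MEF and 1.14 in brain, at the 3′ edge of internal exons 1.07 in MEF, 1.13 in brain and 1.301 in shSuz12, at the 5′ edge of last exons 1.07 in MEF, at the 3′ edge of last exons 1.22 in shSuz12. In the higher-scoring 50% of every list the edge ratio was at the 5′ edge of internal exons 1.08 in MEF and 1.33 in shSuz12, at the 3′ edge of internal exons 1.08 in MEF. As alternatives added after seeing the data, the shares of first, internal and last exons lost in shSuz12 were 63.7%, 56.6% and 44.6% in the higher-scoring 50% of both lists, 80.3%, 74.8% and 68.9% with scores of at least 80, and 49.5%, 47.7% and 32.3% of exons wholly under a peak in shGFP. These alternative shares have no share of all annotated exons beside them. Without read counts the depth of each list, and so the weakest 5hmC that it could show, is unknown.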
